A study of Caenorhabditis elegans with 2 samples.

Results

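The regions described here are those on chromosome X in a genome-wide map of the transcription factor SKN-1 in *Caenorhabditis elegans*. They were chosen by chromosome alone, and 5547 of the 29768 regions in the relaxed list from the pooled replicates qualified (18.6%). Each region was ranked by the authors' signal value, with rank 1 the strongest. The comparison set was the 24221 regions on the 5 autosomes. Of the 1000 strongest regions, called strong below, 207 lay on X and 793 on autosomes. Of the 14884 weakest regions, which made up the lower part of the list and served as its background, 2702 lay on X. The authors' thresholded list equalled ranks 1 to 97 and held 26 X peaks, which was 0.469% of the X regions against 0.326% of all regions.

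SKN-1 is related to the mammalian Nrf proteins and binds DNA as a single protein. It specifies endoderm in the early embryo and, later in life, switches on genes of detoxification and stress resistance. Chromosome X of this species differs from the autosomes in several ways that matter for a binding map. In hermaphrodites a dosage compensation complex loads onto both X chromosomes at recruitment sites that carry a short GC-rich motif and then lowers transcription along the chromosome. The X also carries many tRNA genes and few genes that are active in the germ line.

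The map came from chromatin immunoprecipitation and sequencing (ChIP-seq) of whole L4 larvae of strain OP342, genotype unc-119(ed3) III; wgIs342, with males and females pooled. The strain carries an unc-119 mutation and an integrated transgene that supplies an eGFP-tagged skn-1 copy. The 2 biological replicates formed 1 group, no worms without the tag are among them, and the control alignment that the authors used in making the lists is not used here. Signals from all tissues and both sexes are mixed, so fewer cells with bound SKN-1 and weaker binding per cell cannot be told apart. The lists give no read counts, so the depth is unknown, and the intervals given here are exact 95% binomial intervals that cover counting error over regions only. Fisher's exact tests, all two-sided, treated regions as independent and describe regions of these samples, not worms. X is 1 of 6 chromosomes, and over 6 chromosomes no permutation p can go below 0.167.

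The sequences that carry the main result are the centres of X peaks from the thresholded list. Each is 160 bases around the summit, from the RefSeq sequence of WBcel235, which is ce11, and is written 5′ to 3′ on the strand named. Names are those of the nearest protein-coding start and do not claim a target. The first set holds all 7 thresholded X peaks with GCGCAGGG, 8 letters from within the recruitment motif of the dosage compensation complex, in capitals. In the *ins-39* peak the capitals also mark a SKN-1 site, AATGTCAT.
W02H3.3 (chrX:11094123-11094282, minus strand): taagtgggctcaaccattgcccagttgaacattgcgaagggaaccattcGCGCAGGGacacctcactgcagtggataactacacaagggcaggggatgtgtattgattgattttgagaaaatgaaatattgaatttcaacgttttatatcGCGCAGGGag
F20B6.9 (chrX:4209214-4209373, minus strand): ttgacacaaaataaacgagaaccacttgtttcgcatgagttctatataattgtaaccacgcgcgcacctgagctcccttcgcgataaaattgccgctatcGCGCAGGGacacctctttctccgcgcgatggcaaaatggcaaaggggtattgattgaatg
mom-1 (chrX:6296425-6296584, plus strand): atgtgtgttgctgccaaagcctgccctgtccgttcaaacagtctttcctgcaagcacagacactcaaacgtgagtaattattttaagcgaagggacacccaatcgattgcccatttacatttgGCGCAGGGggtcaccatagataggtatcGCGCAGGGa
nspc-17 (chrX:14525841-14526000, minus strand): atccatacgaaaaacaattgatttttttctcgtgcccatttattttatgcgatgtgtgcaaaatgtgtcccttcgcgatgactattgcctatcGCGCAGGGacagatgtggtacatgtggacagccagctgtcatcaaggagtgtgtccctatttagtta
ins-39 (chrX:1344990-1345149, plus strand): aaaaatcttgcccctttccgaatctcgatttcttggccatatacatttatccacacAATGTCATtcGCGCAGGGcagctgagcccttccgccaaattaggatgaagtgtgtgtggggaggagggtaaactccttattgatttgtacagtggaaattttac
F22H10.2 (chrX:16682027-16682186, minus strand): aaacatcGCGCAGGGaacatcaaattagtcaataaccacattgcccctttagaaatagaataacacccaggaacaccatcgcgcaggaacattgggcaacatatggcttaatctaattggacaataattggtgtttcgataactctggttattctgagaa
C41A3.2 (chrX:5429488-5429647, plus strand): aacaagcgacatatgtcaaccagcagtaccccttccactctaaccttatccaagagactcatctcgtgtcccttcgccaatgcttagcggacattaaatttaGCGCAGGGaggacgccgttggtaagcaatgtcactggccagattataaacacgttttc
The next pair are the other thresholded X peaks with a SKN-1 site, which is in capitals. The site is 2 letters that are each A or T, then T, then A or G, then TCAT.
aak-2 (chrX:16797036-16797195, plus strand): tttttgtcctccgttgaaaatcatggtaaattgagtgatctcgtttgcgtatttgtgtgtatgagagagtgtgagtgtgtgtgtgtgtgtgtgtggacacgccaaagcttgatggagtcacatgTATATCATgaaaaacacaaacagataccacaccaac
nipi-3 (chrX:15607612-15607771, minus strand): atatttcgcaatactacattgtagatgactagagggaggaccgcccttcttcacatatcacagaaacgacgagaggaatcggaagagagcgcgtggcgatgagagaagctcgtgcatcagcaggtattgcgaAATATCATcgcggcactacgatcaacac
The last pair are strong X peaks with no match to either sequence, shown for contrast because they ranked 15 and 19.
K02D3.1 (chrX:13700826-13700985, plus strand): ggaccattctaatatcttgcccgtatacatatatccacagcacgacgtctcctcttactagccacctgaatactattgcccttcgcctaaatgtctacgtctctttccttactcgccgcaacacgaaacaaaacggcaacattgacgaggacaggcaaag
puf-9 (chrX:5841241-5841400, plus strand): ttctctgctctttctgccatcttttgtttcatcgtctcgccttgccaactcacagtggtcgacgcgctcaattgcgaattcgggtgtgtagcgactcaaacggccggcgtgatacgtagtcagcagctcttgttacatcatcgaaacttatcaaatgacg

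GCGCAGGG was the feature that most set the strong X regions apart from the strong autosomal ones. Both strands were searched within 100 bp of each summit, and 0.131% of all 29768 regions held a match. Of the 207 strong X regions, 10 held one (4.83%, 2.34 to 8.70%). Of the 793 strong autosomal regions, 1 did, on chromosome III (0.126%, 0.00319 to 0.701%). The odds ratio was 40.2, with a two-sided Fisher's exact adjusted p = 4.37e-06 over the 4 sequence features searched. The letters were chosen with earlier results of these data known. Adjustment over the 4 features does not cover that choice, so the p describes these regions and is not independent support. A match is a description of the letters and does not show which protein was bound.

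Matches grew more frequent toward the top of the X ranking. They were present in 26.9% of the 26 thresholded X peaks (11.6 to 47.8%), in 2.56% of X regions ranked 98 to 300 and in 1.41% of those ranked 301 to 1000. Among the 2702 weak X regions 4 held a match (0.148%), an odds ratio of 34.2 for strong against weak X regions. This comparison was chosen after the matches in the strongest X peaks had been seen, and its p is not given as support. None of the 71 thresholded autosomal peaks held a match, which allows a share of up to 4.23% (exact upper limit 5.06%). The strong-against-weak odds ratio on the autosomes was 2.56 (1 of 793 against 6 of 12182).

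**Figure D1:**
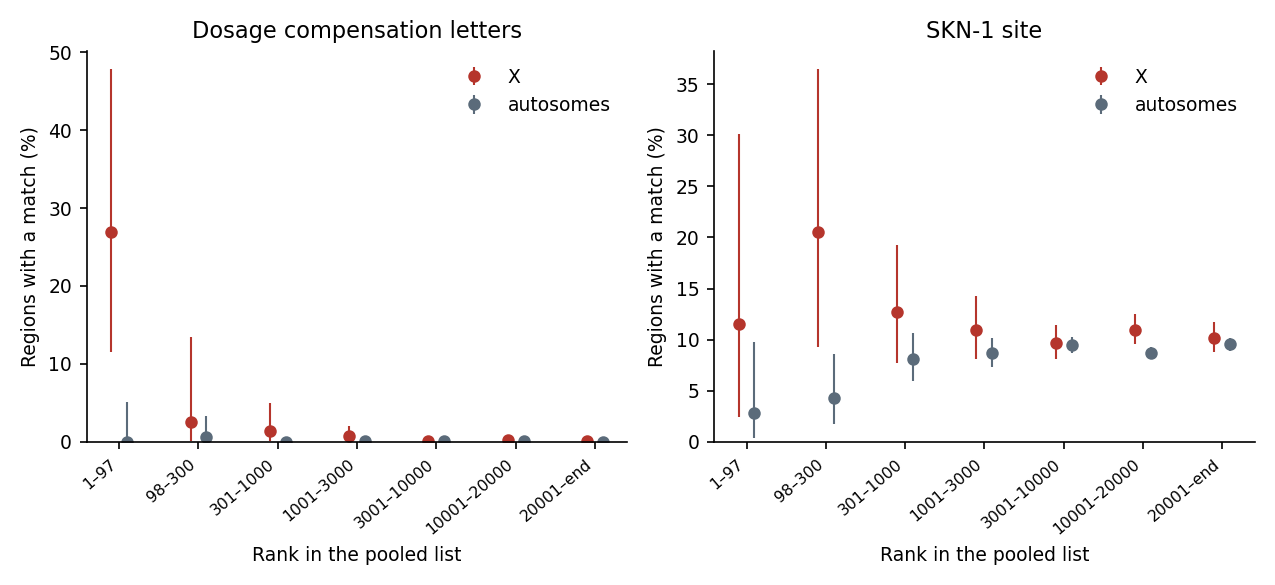
Share of regions (percent, with exact 95% intervals) holding the dosage compensation letters or the SKN-1 site within 100 bp of the summit, on X and on the autosomes, by rank in the pooled list. The dosage compensation letters stand at 26.9% in X ranks 1 to 97 and at 0 in the autosomal peaks of those ranks, and the SKN-1 site is at 20.5% in X ranks 98 to 300 against 4.27% on the autosomes.

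The excess was present in each replicate's own list, with different sizes. Of replicate 1's 1000 strongest regions, 16 of 213 on X held GCGCAGGG (7.51%) against 1 of 787 on the autosomes. In replicate 2, 6 of 214 on X did (2.80%) against 1 of 786, with a two-sided Fisher's exact adjusted p = 0.00209. The limit from the choice of letters holds for this p too. The share on X was thus above the autosomal share in both replicates and was larger in replicate 1. In ranks 1 to 97 of replicate 1's own list, 9 of 25 X regions held the letters (36.0%) and 0 of 72 autosomal ones. In those ranks of replicate 2's list, 2 of 27 X regions did (7.41%, 0.910 to 24.3%) and 1 of 70 autosomal ones (1.43%, 0.0362 to 7.70%). The contrast in the first bin was thus much smaller in replicate 2, where the intervals overlapped.

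The 7 thresholded peaks with the letters ranked high in replicate 1 and more widely in replicate 2. Their ranks in replicate 1 ran from 13 to 99, with a median of 57, and in replicate 2 from 2 to 6226, with a median of 403. The 19 thresholded X peaks without the letters ran from 25 to 7633 in replicate 1, with a median of 208, and from 1 to 1812 in replicate 2, with a median of 55. The strongest X peak (rank 7, pooled signal 55.5) lay between genes, 3983 bp from the start of *W02H3.3*, and held 2 matches. It ranked 15 in replicate 1 (signal 30.5) and 11 in replicate 2 (signal 23.2), so it was near the top of both. The peak 1809 bp upstream of *F20B6.9* (rank 14, signal 47.4) ranked 13 and 403. The peak in an intron of *mom-1*, which encodes a Porcupine-like protein needed for Wnt secretion, also held 2 matches, had a pooled signal of 41.1 and ranked 99 and 2. This was the one of the 7 that stood much higher in replicate 2.

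The other 4 were lower in replicate 2 than in replicate 1. A peak 740 bp upstream of *nspc-17*, of a nematode-specific peptide family, ranked 57 and 424, and one 649 bp upstream of the insulin-like peptide gene *ins-39* ranked 79 and 192. These were the 2 peaks of the 7 in a promoter window, which here reached from 1000 bp before to 500 bp after the outermost start of a protein-coding gene. A peak 2567 bp past the start of *F22H10.2* ranked 23 and 2334. The peak with *C41A3.2* as its nearest start, 15218 bp away, lay in a coding exon of the polyketide synthase gene *pks-1* and ranked 63 and 6226. The last 2 peaks were therefore outside the 1000 strongest regions of replicate 2.

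Below the threshold, 3 further strong X regions held GCGCAGGG. One at rank 283 had *xol-1*, the switch gene of sex determination and dosage compensation, as its nearest start at 4915 bp, held 2 matches, and ranked 81 and 248 in the replicates. It was also within 500 bp of a tRNA gene. One at rank 410 lay 3907 bp from the start of *gtr-1*, held 2 matches and ranked 37 and 4216. One at rank 666 was the neighbour of the rank 14 peak, 1254 bp from the start of *F20B6.9*. Over all ranks 21 X regions held the letters, with a median rank of 1237, and 18 autosomal regions did, with a median rank of 13664. Of the 21, 12 lay over 2000 bp from any protein-coding start and 5 were in promoter windows. Among weak X regions 47.6% lay that far from a start and 23.3% were in such windows. So few regions do not set those with the letters apart from that background.

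Most copies of the letters on X were not in strong regions. The X sequence holds 81 matches, or 4.57 per Mb, against 2.06 to 3.34 per Mb on the autosomes. Of the 81, 16 lay in strong regions (19.8%), which cover 0.453% of X, and 10 lay in thresholded peaks. Of the 233 autosomal matches, 2 lay in strong regions (0.858%), both on chromosome III. They were 4.35% of the 46 matches there, and strong regions cover 0.488% of that chromosome. Regions of any rank held 32.6% of the matches on chromosome III and 38.3% of those on X. Such regions cover 12.0% and 11.8% of the 2 chromosomes. The recruitment motif is longer than these 8 letters, and the bases beside a match were counted for that reason. TC stood directly before 10 of the 16 X matches in strong regions (62.5%), before 9 of the 65 other X matches (13.8%) and before 6 of the 233 autosomal ones (2.58%). An A directly after the match was found in 11 of 16, 23 of 65 and 79 of 233. TC directly before together with AG directly after was rare, in 1 of 16, 2 of 65 and 0 of 233. These shares were not tested.

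A related run of letters was seen on reading the printed sequences and was counted afterwards, with no test. GCGAAGGG, which resembles GCGCAGGG, was within 100 bp of the summit in 7 of the 26 thresholded X peaks and in none of the 71 autosomal ones. Those 7 were at *W02H3.3*, *F20B6.9*, *K02D3.1*, *mom-1*, *nspc-17*, *ZK899.6* and *C41A3.2*, and 5 of them held both sequences. It was found in 9 of the 207 strong X regions, in 0 of the 793 strong autosomal regions (exact upper limit 0.464%) and in 0.178% of all regions.

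The SKN-1 site was also more frequent at strong X regions than at strong autosomal regions. It was found in 29 of 207 (14.0%, 9.59 to 19.5%) against 54 of 793 (6.81%, 5.16 to 8.79%), an odds ratio of 2.23 (two-sided Fisher's exact adjusted p = 0.00330 over 4 features). Each autosome was lower than X, from 5.71% on chromosome V to 8.39% on chromosome II. Over all 29768 regions the share was 9.35%. In replicate 2's own list the shares were 13.6% and 7.51% and the difference passed (exact adjusted p = 0.0183). In replicate 1's they were 10.3% and 6.73%, and it did not pass (exact adjusted p = 0.160).

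The site was not shown to be more frequent in strong than in weak regions of X itself, a comparison chosen after seeing the data. Weak X regions held it in 10.4% of 2702, which gave an odds ratio of 1.41 for strong regions (two-sided Fisher's exact p = 0.102). On the autosomes it was less frequent in strong than in weak regions, at 6.81% against 9.23% (odds ratio 0.719, exact p = 0.0215). The X sequence itself has more copies, 647 per Mb against 494 to 573 on the autosomes. The part of this density in the difference was not tested. Of the 26 thresholded X peaks, 3 held the site, at *ins-39*, *aak-2* and *nipi-3*, against 2 of the 71 autosomal peaks.

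The remaining sequence features did not separate X from the autosomes in every reading. TGATAA, the core recognised by GATA factors of the intestine and skin, was found in 14.5% of strong X and 13.7% of strong autosomal regions (odds ratio 1.06, exact adjusted p = 0.821), against 17.2% of all regions. In replicate 2's own list it was at 21.5% and 14.8% and the difference passed (odds ratio 1.58, exact adjusted p = 0.0283), while in replicate 1's the odds ratio was 0.930. The GA repeat GAGAGAGA was found in 5 of 207 strong X regions (2.42%) and in 58 of 793 autosomal ones (7.31%), with an odds ratio of 0.314 (exact adjusted p = 0.0124), against 2.33% of all regions. In replicate 1's own list it was at 6.57% and 6.99%, and the difference was lost. GC content around strong summits was alike, 43.1% on X and 42.8% on the autosomes.

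In number, X regions made up a share close to or somewhat above that of the chromosome in genome length, with the highest share in the first rank bin. X makes up 17.7% of the nuclear genome and held 313 regions per Mb, within the autosomal range of 269 to 321. Of strong regions X held 11.7 per Mb, also within the autosomal range, from 8.06 on chromosome IV to 12.8 on chromosome III. Chromosome III, at 13.7% of genome length, held 22 thresholded peaks among its 4429 regions, against 26 among 5547 on X. A high share of the strongest regions was thus not particular to X. The density of protein-coding genes on X was lower, 154 against 209 per Mb. X held 26.8% of ranks 1 to 97 (18.3 to 36.8%), 19.2% of ranks 98 to 300, 20.3% of ranks 301 to 1000, 21.1% of ranks 1001 to 3000 (19.3 to 22.9%), 18.6% of ranks 3001 to 10000, 18.8% of ranks 10001 to 20000 (18.01 to 19.5%) and 17.8% of the last bin. In replicate 1's list X held 25.8% of the first 97 ranks, and in replicate 2's 27.8%. Taken as ranks 1 to 1000 against the rest, the X share was 20.7% against 18.6% and did not pass (odds ratio 1.15, Fisher's exact p = 0.0903). It passed for ranks 1 to 2000, at 21.2% against 18.4% (exact p = 0.00266). With regions holding GCGCAGGG left out, an alternative chosen after seeing the data, the odds ratio for ranks 1 to 1000 was 1.11 (exact p = 0.215).

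**Figure D2:**
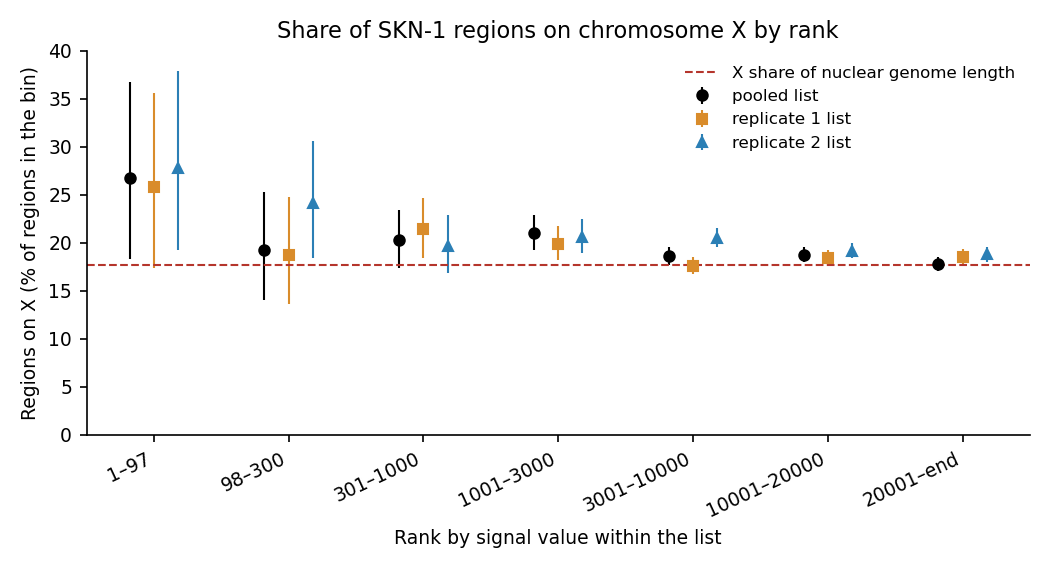
Share of regions on chromosome X (percent, with exact 95% intervals) by rank bin in the pooled list and in each replicate's own list, with the X share of nuclear genome length as a dashed line. The first bin stands at 26.8%, 25.8% and 27.8% in the 3 lists, and the pooled share falls to 17.8% in the last bin.

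Strong X regions lay farther from protein-coding starts than strong autosomal regions. Of 207, 84 had their summit over 2000 bp from the nearest start (40.6%, 33.8 to 47.6%), against 248 of 793 (31.3%, 28.1 to 34.6%), an odds ratio of 1.501 (two-sided Fisher's exact p = 0.0129). The share on each autosome was lower than on X, from 22.2% on chromosome I to 35.2% on chromosome III. The difference was seen in replicate 1's own list (41.8% against 33.0%, exact p = 0.0189) and in replicate 2's (43.9% against 35.4%, exact p = 0.0254), where chromosome III stood at 41.9%. Genes are sparser on X, and the weak regions differed in the same direction, 47.6% against 38.5%. The median distance of strong regions was 1462 bp on X and 1018 bp on the autosomes, and that of weak regions 1895 and 1415 bp. The call was lost with ranks 1 to 500 (38.1% against 30.4%, exact p = 0.158) and with distances taken to starts of genes of any biotype (21.3% against 15.9%, exact p = 0.0770). With regions carrying GCGCAGGG left out, an alternative chosen after seeing the data, the shares were 40.3% and 31.5% (exact p = 0.0236).

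The share in promoter windows was not shown to differ between X and the autosomes. It was 74 of 207 on X (35.7%, 29.2 to 42.7%) and 330 of 793 on the autosomes (41.6%, 38.2 to 45.1%), an odds ratio of 0.781 (two-sided Fisher's exact p = 0.131). The windows cover 21.9% of X bases and 27.4% of autosomal bases. Chromosomes II (35.7%) and III (35.2%) stood at the level of X, and chromosome I was highest at 49.4%. With windows reaching 2000 bp upstream the difference passed, at 44.0% against 54.9% (odds ratio 0.646, exact p = 0.00615).

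Set against the weak regions of the same chromosome, strong X regions were in promoter windows more often. The shares were 35.7% and 23.3% (odds ratio 1.83, Fisher's exact p = 0.000136), and on the autosomes 41.6% and 29.6% (odds ratio 1.70, exact p = 4.10e-12). The ratio of the 2 odds ratios was 1.08 (95% interval 0.774 to 1.503), so a difference between X and the autosomes in this respect was not shown. In replicate 2's own list the odds ratio on X was 1.21 (exact p = 0.247).

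**Figure D3:**
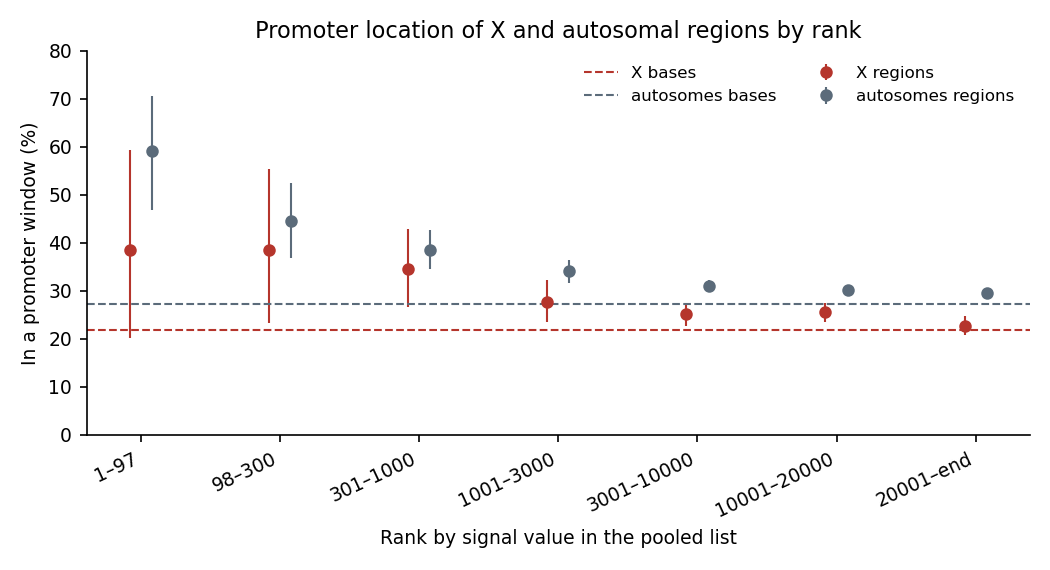
Share of summits in a promoter window (percent, with exact 95% intervals) for X and autosomal regions by rank in the pooled list, with the share of bases in such windows as dashed lines. Shares fall from 38.5% to 22.7% on X and from 59.2% to 29.6% on the autosomes.

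By gene feature, strong X summits were 44.4% intergenic, 21.3% in introns, 16.4% in coding exons, 14.0% in other exons, 2.42% in 3′ UTRs and 1.45% in 5′ UTRs. The autosomal shares were 39.1, 23.2, 21.6, 8.20, 4.67 and 3.28% in that order. No class passed after adjustment over 6 classes. The nearest was other exons, those of noncoding genes and unassigned transcript parts, at an odds ratio of 1.82 (two-sided Fisher's exact adjusted p = 0.0927).

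tRNA genes lay near strong X regions more often than near strong autosomal ones, as they do near X sequence in general. Of the 207 strong X regions, 19 were within 500 bp of a tRNA gene (9.18%, 5.62 to 14.0%), against 22 of 793 (2.77%, 1.75 to 4.17%), an odds ratio of 3.54 (two-sided Fisher's exact p = 0.000207). X carries 276 of 612 annotated tRNA genes. The bases within that distance of one are 1.38% of X and 0.398% of the autosomes, and weak regions were near one in 2.18% and 0.566%. Counted per gene, 27 of the 276 X tRNA genes had a strong region within 500 bp (9.78%, 6.55 to 13.9%) and 26 of the 336 autosomal ones did (7.74%, 5.12 to 11.1%). In replicate 1's own list the shares of regions were 7.04% and 1.78%. In replicate 2's they were 3.74% and 1.91%, and the difference did not pass (exact p = 0.124). The strongest of the 19, at rank 80 near *col-181*, ranked 220 in replicate 1 and 1812 in replicate 2.

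**Figure D4:**
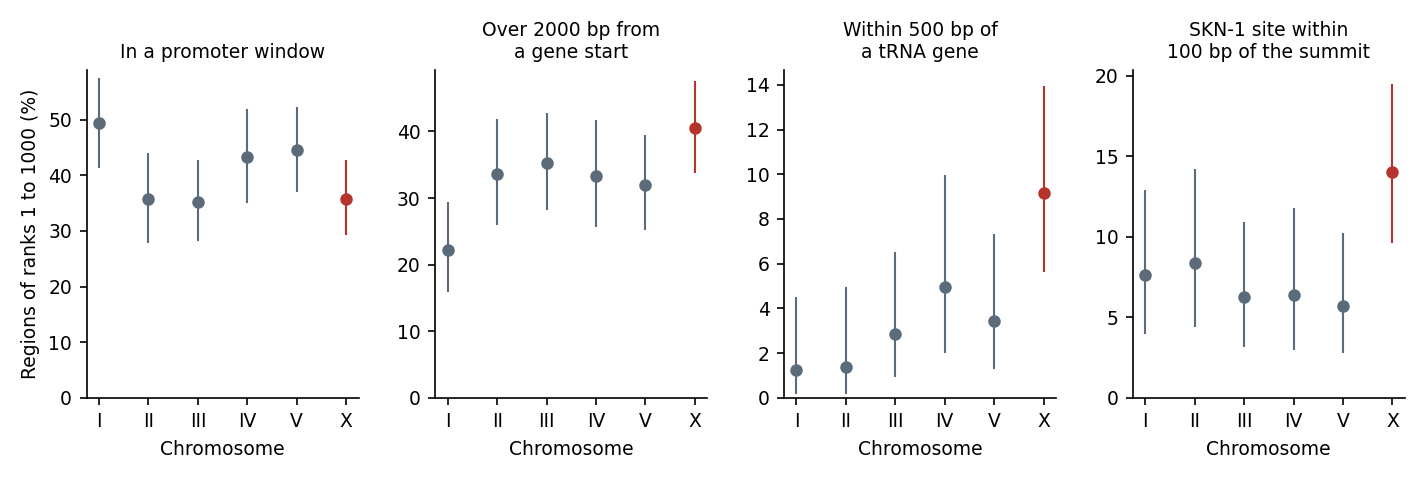
Shares of the 1000 strongest pooled regions on each chromosome (percent, with exact 95% intervals) in a promoter window, over 2000 bp from a protein-coding start, within 500 bp of a tRNA gene and with a SKN-1 site within 100 bp of the summit. X stands highest in the last 3 panels, at 40.6%, 9.18% and 14.0%, and near chromosomes II and III in the first.

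Along X, strong regions were spread over the whole chromosome. The 3 equal stretches held 66, 67 and 74 strong regions and 7, 8 and 11 thresholded peaks. The middle stretch held 32.4% of strong and 32.6% of weak X regions (odds ratio 0.991, Fisher's exact p = 1.0). In windows of 1 Mb (1000000 bases) the count of strong regions ran from 5 to 22 among whole windows, and the highest was the seventh window from the left end. Replicate 1's own list had 10 of its strongest 1000 there, and replicate 2's had 15, so that window led in neither. The median gap between neighbouring strong X regions was 55274 bp, and 10 gaps were within 1000 bp.

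Of the 26 thresholded X peaks, 10 were in a promoter window and 11 lay over 2000 bp from a start, against 42 and 16 of the 71 autosomal peaks. In ranks 1 to 97 of replicate 1's own list the promoter shares were 36.0% on X and 65.3% on the autosomes. In replicate 2's they were 48.1% and 41.4%, so the order of the promoter shares was not the same in both replicates. The thresholded X peaks in promoter windows had genes of several kinds. Among genes acting on RNA, *puf-9*, of the Pumilio family of RNA-binding proteins, had a peak 271 bp upstream (signal 43.5, replicate ranks 26 and 83), and *ain-1*, a GW182-like component of the microRNA silencing complex, had one 996 bp upstream (signal 39.2, ranks 83 and 5). The translation elongation factor gene *eef-1A.2* had one 440 bp upstream (signal 33.3, ranks 64 and 412). In metabolism, *sdha-1*, for the flavoprotein of succinate dehydrogenase, had one 58 bp upstream with a snoRNA gene and another noncoding RNA gene within 500 bp (signal 33.2, ranks 208 and 146). These 4 peaks were among the 1000 strongest of both replicates.

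Other promoter peaks were at genes of regulation and membrane traffic. *nipi-3*, a Tribbles-like pseudokinase gene of the response to infection, had a peak 277 bp upstream (signal 36.4, replicate ranks 158 and 22). The next peak along, 376 bp upstream of the small GTPase gene *rab-14*, was 958 bp from the *nipi-3* start and so fell in both windows (signal 29.7, ranks 403 and 25). *zfp-3*, a zinc finger gene, had one 335 bp upstream (signal 29.3, ranks 71 and 916), and the nuclear receptor gene *nhr-35* one 402 bp upstream (signal 29.0, ranks 333 and 55). All 10 promoter peaks, those of *nspc-17* and *ins-39* included, were in the top 1000 of both replicates, against 10 of the 16 other thresholded X peaks.

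Peaks outside promoter windows lay in introns, in exons outside coding sequence and UTRs, in a 3′ UTR, in a coding exon or between genes. A peak inside *aak-2*, the catalytic subunit gene of AMP-activated kinase, lay 1029 bp from the start with a noncoding RNA gene within 500 bp (signal 38.1, replicate ranks 111 and 68). One in the 3′ UTR of the 14-3-3 gene *ftt-2* had a signal of 35.3 and ranked 616 and 16. One in an intron of *lin-14*, the heterochronic gene that times larval fates, lay 7790 bp from its start (signal 29.2, ranks 794 and 350). Intergenic peaks nearest to *K02D3.1* (6001 bp, signal 45.7) and *F19H6.5* (1674 bp, signal 34.8) ranked 25 and 26, and 78 and 23. That nearest to *ZK899.6* (2549 bp, signal 36.0) ranked 50 and 734, and that nearest to *olrn-1*, a gene of olfactory neuron asymmetry, 862 and 30 (2202 bp, signal 32.6).

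Of the 26 peaks, 6 lay outside the first 1000 ranks of 1 replicate, and none of these was in a promoter window. The peak nearest to *C30E1.4* (signal 35.5) ranked 7633 in replicate 1 and 1 in replicate 2, that nearest to *F46H5.3* (signal 32.04) ranked 7311 and 145, and that in an intron of *ZK470.2* (signal 32.9) ranked 2630 and 17. The peaks nearest to *F22H10.2*, *C41A3.2* and *col-181* went the other way, with replicate 2 ranks of 2334, 6226 and 1812. The limit of the thresholded list fell between close values. The last X peak inside it, at *nhr-35*, had a signal of 29.05, and the next X regions, at ranks 98, 101 and 104, had 29.04, 28.97 and 28.79.

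**Figure D5:**
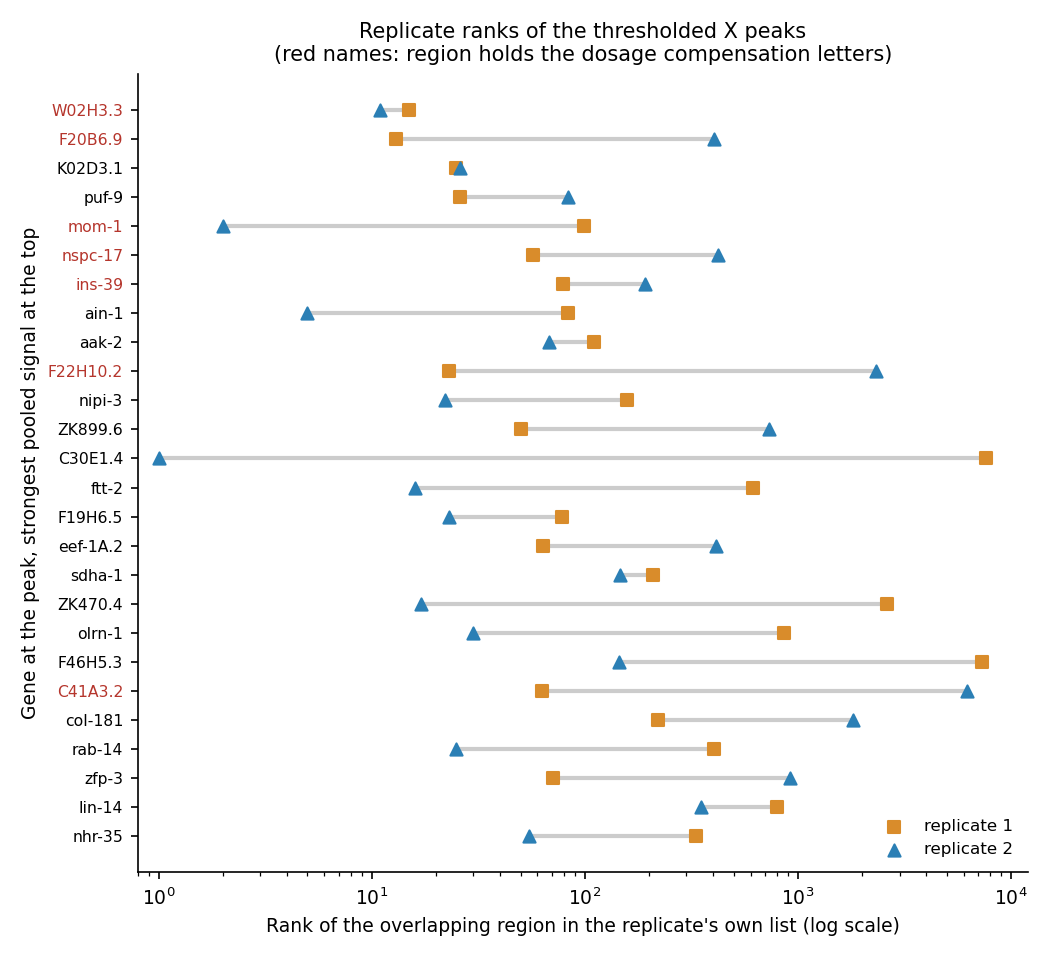
Rank in each replicate's own list (log scale, 1 is the strongest) of the region overlapping each of the 26 thresholded X peaks, ordered by pooled signal, with names in red where the peak holds the dosage compensation letters. In all, 20 of the 26 were within the first 1000 ranks of both replicates.

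Over the 1000 strongest regions of each replicate, those of replicate 1 on X overlapped one of replicate 2 in 35 of 213 cases (16.4%, 11.7 to 22.1%). On the autosomes 105 of 787 did (13.3%, 11.0 to 15.9%), a difference that did not pass (odds ratio 1.28, Fisher's exact p = 0.266).

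Read by gene, 74 of 2731 X protein-coding genes had a strong summit in their promoter window (2.71%), against 2.44% of 17242 autosomal genes. A summit of any rank was in the window of 43.4% of X genes and 41.4% of autosomal genes. Gene lists are described against these shares with counts only. Of 23 X nuclear receptor genes, 4 had a strong summit: *nhr-35*, *nhr-48* (rank 240, replicate ranks 497 and 3845), *nhr-27* (rank 551, replicate ranks 24402 and 229) and *nhr-3* (rank 924, replicate ranks 1111 and 2717). Of these, *nhr-35* alone was in the first 1000 ranks of both replicates. In the pooled list a strong summit was thus found for 17.4% of the X receptors and for 8 of the 246 autosomal ones (3.25%). The 2 X genes for cytosolic ribosomal proteins included *rpl-11.2* (rank 140, replicate ranks 2198 and 18). The 3 for the vacuolar proton pump included *vha-12*, its B subunit (rank 123, replicate ranks 1200 and 52). Of 5 chaperone genes, *hsp-3*, a BiP-like chaperone of the endoplasmic reticulum (rank 104, replicate ranks 107 and 223), and the small heat shock gene *hsp-43* (rank 298, ranks 9271 and 6021) had one. The *hsp-3* region was high in both replicates and the *hsp-43* region in neither. On the autosomes a strong summit was found for 13 of 75 cytosolic ribosomal protein genes (17.3%). The same held for 2 of 17 proton pump genes (11.8%) and 6 of 46 chaperone genes (13.0%). On the autosomes these lists thus stood above the 2.44% of all genes. On X they hold too few genes for their shares to be read.

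In the other X lists the counts of genes with a strong summit were small and near the background of 2.71%, so nothing is read from them. Of 34 neuropeptide and insulin-like genes 1 did, *ins-39*, and of 27 collagen genes 1 did, *col-181*, in whose first part a second region ranked 384. None of 18 ceh homeobox genes, 16 unc genes, 14 detoxification genes, 5 muscle genes, 5 vitellogenin genes or 4 lin genes had a strong summit. In that order 9, 13, 6, 2, 3 and 2 of them had a summit of some rank, against 43.4% of all X genes. The unc genes stood highest, at 81.25% on X and 51.3% on the autosomes, and the others at 40 to 60% on X. These shares were not tested. For *vit-2*, a yolk protein gene, the region 64 bp upstream ranked 12842.

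Of 5 X genes that read the X or start dosage compensation, none had a strong summit, against 2.71% of all X genes, and 3 had a summit of some rank, against 43.4%. So few genes do not set the list apart from the background. *sdc-1* and *sdc-2*, needed to load the complex on X, had regions at rank 1716 (439 bp upstream) and 17572 (381 bp upstream). *ceh-39*, an X signal element, had one at rank 1947 (291 bp upstream, replicate ranks 3300 and 7019). *sex-1* and *fox-1*, also X signal elements, had no region in their window.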

How the data were processed

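Regions from ChIP-seq of 2 biological replicates, 1 group, were analysed as deposited. The authors made a relaxed list per replicate and from the pooled replicates, holding peaks and background regions, from alignments and a control alignment, and a list thresholded on the irreproducible discovery rate, per the deposited file listing. For peak caller, aligner and threshold, a name or value was not given in the sources used here. The signal value is a score deposited by the authors on an unstated scale, used only to rank regions within a list. Depth is unknown. Columns that matched no sample numbered 0.

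Summits on ce11 were placed on Ensembl release 115 genes (19973 protein-coding). No coordinates were converted, and ce10 lists gave counts only. A summit over several features was given to coding exon, 5′ UTR, 3′ UTR, other exon and intron in that order. Shares were compared with two-sided Fisher's exact tests at a threshold of 0.05, with Benjamini-Hochberg adjustment over 6 feature classes and over 4 sequence features, in Python 3.11.15 with SciPy 1.17.1, NumPy 2.4.6 and pandas 2.3.3. Where 1 count was 0, 0.5 was added to each cell for the odds ratio only. The tests, the letter search and the overlaps were tested on simulated data. Alternatives covered other rank limits, windows, distances and lists, each replicate alone, and single sets of regions left out.

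The genes named are those at the 26 thresholded X peaks, X genes of the lists with a strong summit, and *sdc-2*, *sex-1*, *fox-1*, *ceh-39* and *vit-2* in any case; *sdc-1*, *xol-1* and *gtr-1* were added after their values were seen. The members, lists and letters were chosen with earlier results of these data known.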

Additional observations from a re-analysis of the deposited data

How the results depend on the processing

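No paired analysis was possible because there is 1 group. Of 148 values computed under alternatives, 114 kept the direction and the side of the threshold. The excess of GCGCAGGG on X did so in every alternative run, with odds ratios from 22.6 to 63.8 in the lists of single replicates and of 6.91 with the shorter CGCAGGG, a setting chosen after seeing the data.

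With either replicate left out, odds ratios ran from 1.43 to 1.45 for the distal share, 0.711 to 0.748 for the promoter share (passing without replicate 2), 1.13 to 1.201 for the X share by rank (passing without replicate 2) and 2.00 to 4.18 for tRNA neighbours (lost without replicate 1). For strong against weak promoter shares they ran from 1.21 to 1.74 on X (lost without replicate 1). For the SKN-1 site they ran from 1.60 to 1.93 and for GAGAGAGA from 0.346 to 0.936 (both lost without replicate 2). For TGATAA they ran from 0.930 to 1.58 (reversed without replicate 2, passing without replicate 1). Among features, intergenic ran from 1.38 to 1.53 and coding exon from 0.565 to 0.678, both passing without replicate 1, while intron (0.739 to 1.05) and 3′ UTR (0.758 to 1.14) reversed without it.

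With ranks 1 to 2000, the X share (1.19), the promoter share (0.756), intergenic (1.34), other exon (1.60) and coding exon (0.732) passed, GAGAGAGA (0.614) was lost, and 5′ UTR (1.04), TGATAA (0.936) and position (1.10) reversed. Against the thresholded list the X share passed (1.60). With ranks 1 to 500 the distal share was lost (1.41), and so it was with starts of any biotype (1.43). Promoter windows of 2000 bp made the promoter share pass (0.646) and turned the ratio of odds ratios (0.918). Windows of 50 and 190 bp lost GAGAGAGA (0.361 and 0.736) and reversed TGATAA (0.936 and 0.835). Position, which never passed, also reversed with neighbours counted once (1.01), with tRNA neighbours left out (1.04) and with the central stretch enlarged (1.00). Against weak X regions, a setting chosen after seeing the data, the SKN-1 site was lost (1.41). The causes of these changes were not tested.

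Depth is unknown and no worms without the tag were used, so signal that does not come from tagged SKN-1 cannot be told apart. Regions had a fixed width with the summit at the middle in nearly all, and a sequence outside the windows was not counted.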

Other observations

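Noncoding genes other than tRNA genes also lay near strong X regions in different proportions from the autosomes. Of the 207 strong X regions, 62 were within 500 bp of an annotated ncRNA gene (29.95%), against 148 of 793 on the autosomes (18.7%). The bases within that distance were 11.7% of X and 5.65% of the autosomes, and weak regions were near one in 14.0% and 6.94%. For snoRNA genes, which guide RNA modification, the order was the other way, with 1 strong X region (0.483%, at *sdha-1*) and 36 autosomal ones (4.54%). X carries 33 snoRNA genes and the autosomes 313. The bases within 500 bp of one were 0.206% of X and 0.411% of the autosomes, and weak regions were near one in 0.259% and 0.599%. These shares were chosen after their values were seen and were not tested.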
